A study of Caenorhabditis elegans with 6 samples.

Results

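The fatty acid elongase genes elo-1 to elo-9 of the nematode Caenorhabditis elegans were taken from the deposited expression table by their WormBase gene identifiers, and 9 of the 46778 genes in the table belong to this family. RNA was sequenced in 6 libraries, 3 from animals treated with HLB01 and 3 from Control animals. HLB01 is known here by its code name alone, and the title of the series names a Vicatia thibetica root extract. For either group, the sources used here give no strain, genotype, stage, age, dose or duration, nor do they say whether the replicates came from separate cultures. The p-values therefore cover the spread between these libraries, which may be technical. The agent field reads HLB01, HLB02 and HLB03 for treated replicates 1, 2 and 3, whereas their titles name all 3 as HLB01, and the titles were followed.

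Elongases catalyse the first and rate-limiting step of fatty acid elongation at the endoplasmic reticulum, the condensation of an acyl-CoA with malonyl-CoA. A ketoacyl-CoA reductase, a hydroxyacyl-CoA dehydratase and an enoyl-CoA reductase complete each cycle. Worms use elongases both for straight-chain fatty acids, which desaturases turn into polyunsaturated ones, and for the branched iso-fatty acids that they build from leucine and need for growth.

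No elongase gene passed the test between HLB01 and Control animals, with 8 of the 9 high enough to be tested. Their mRNA levels fell into 2 tiers. The genes elo-1, elo-3, elo-6, elo-2 and elo-5 lay between 49.6 and 229 TPM on average over the 6 libraries, whereas elo-9, elo-8, elo-4 and elo-7 lay between 0.67 and 2.73 TPM. TPM is a transcript level per length, scaled to a fixed total per library, so genes can be compared on it. The low-level gene elo-8 had the largest log2 fold change of the family, with all HLB01 values above all Control values, but did not pass the test over all genes.

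The 5 abundant genes are all on chromosome IV (build WBcel235), which holds 6 of the 9 members and 16.5% of the protein-coding genes in the table. The gene elo-1 (WBGene00001239) lies at 9526366 to 9528336 on the plus strand, and elo-7 (WBGene00001245) follows at 9529947 to 9531400 on the same strand, 1610 bp further on. The gene elo-5 (WBGene00001243, 5374616 to 5377117) and the gene elo-6 (WBGene00001244, 5386629 to 5388559) lie on the minus strand, 9511 bp apart with 3 protein-coding genes between them. The gene elo-3 (WBGene00001241) lies at 7237718 to 7240488 on the plus strand and elo-2 (WBGene00001240) at 17466062 to 17467408 on the minus strand. On chromosome III lie elo-4 (WBGene00001242, 9332269 to 9334274) and elo-8 (WBGene00001246, 11230377 to 11232069), and on chromosome II lies elo-9 (WBGene00001247, 14959526 to 14964108), all on the minus strand.

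In coding length the members were alike, whereas their gene spans ran from 1347 bp for elo-2 to 4583 bp for elo-9. All are annotated as protein-coding, with 3 to 6 exons in the longest transcript and coding sequences of 274 to 320 codons. Those of elo-2, elo-5 and elo-6 were each 274 codons long. The longest overlap with a detected gene on the other strand is that of elo-5, which shares 162 bp of its end with F41H10.3, at 48.7 TPM in HLB01 and 48.2 TPM in Control. The gene elo-4 shares 16 bp with ufc-1, at 106.6 TPM in HLB01 and 111 TPM in Control, far above its own level. The gene elo-3 shares 44 bp with gstk-2, at 3.58 TPM in HLB01 and 3.41 TPM in Control, far below the level of elo-3. A stretch of 64 bp is shared by elo-7 and F56H11.2, at 2.81 TPM in HLB01 and 3.55 TPM in Control. In every library F56H11.2 was above elo-7. Reads in these stretches cannot be told apart without a stated strand setting.

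The elongase of polyunsaturated fatty acids, elo-1, had the highest level of the family. It was at 226, 240.45 and 239 TPM in the HLB01 libraries, against 226, 217 and 229 TPM in the Control libraries. The groups overlapped, since HLB01 replicate 1 lay below Control replicate 3. Means were 234.98 ± 8.15 TPM in HLB01 and 224 ± 5.93 TPM in Control (SD, n = 3 each). The log2 fold change was 0.07 ± 0.04 (SE; limma adjusted p = 0.734). Of the 12590 tested genes, which reached 1 TPM in 3 or more libraries, elo-1 ranked 584th by mean level.

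The gene elo-2, whose product elongates palmitic acid to stearic acid and also acts on polyunsaturated fatty acids, had the largest log2 fold change among the abundant members. Its level was 70.4, 68.8 and 68.4 TPM in HLB01 libraries and 57.5, 67.9 and 62.5 TPM in Control libraries. All HLB01 values lay above all Control values, with a gap of under 1 TPM to Control replicate 2. Means were 69.2 ± 1.06 TPM in HLB01 and 62.6 ± 5.20 TPM in Control (SD, n = 3 each), and the log2 fold change was 0.14 ± 0.06 (limma adjusted p = 0.617). Without Control replicate 1, the lowest library, the log2 fold change was 0.08, and without Control replicate 2 it was 0.20, neither past the threshold (limma adjusted p = 0.898 and 0.487).

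The branched-chain pair elo-5 and elo-6 is known for making iso-fatty acids, elo-5 in the main route and elo-6 also on palmitic acid. For elo-5 the libraries read 48.1, 49.2 and 52.3 TPM in HLB01 and 41.98, 51.4 and 54.95 TPM in Control. The HLB01 values all fell inside the Control range. The log2 fold change was 0.02 ± 0.10 (limma adjusted p = 0.974), with means of 49.9 ± 2.15 TPM in HLB01 and 49.4 ± 6.70 TPM in Control (SD, n = 3 each). Its sign rested on single libraries, at -0.09 without Control replicate 1 and -0.014 without HLB01 replicate 3.

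For elo-6 the values were 68.7, 69.9 and 66.04 TPM in HLB01 and 59.8, 67.4 and 68.8 TPM in Control, and only Control replicate 1 stood below the other libraries. The means were 68.2 ± 1.96 TPM in HLB01 and 65.3 ± 4.82 TPM in Control (SD, n = 3 each). On the log2 scale the difference was 0.06 ± 0.06 (limma adjusted p = 0.844), and 0.0030 without Control replicate 1. Within each library elo-6 was higher than elo-5, with a TPM ratio of 1.43, 1.42 and 1.26 in HLB01 and of 1.42, 1.31 and 1.25 in Control. The 3 protein-coding genes between the pair were far lower, with F41H10.1 at 5.38 TPM in HLB01 and 6.64 TPM in Control, and F41H10.12 and F41H10.2 below 0.5 TPM in every library.

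The gene elo-3, an elongase family member, was the second most abundant, at 114, 118 and 117 TPM in HLB01 against 104, 106 and 116 TPM in Control. Only Control replicate 3 reached into the HLB01 range. The log2 fold change was 0.10 ± 0.05 (limma adjusted p = 0.694), with means of 116 ± 1.97 TPM in HLB01 and 109 ± 6.52 TPM in Control (SD, n = 3 each). It was 0.15 without Control replicate 3 and 0.07 without Control replicate 1.

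Among the low-level members, elo-8 was at 2.65, 1.95 and 2.42 TPM in HLB01 and at 1.80, 1.47 and 1.52 TPM in Control. The groups did not overlap, though HLB01 replicate 2 lay just above Control replicate 1. The means were 2.34 ± 0.357 TPM in HLB01 and 1.597 ± 0.178 TPM in Control (SD, n = 3 each), a ratio of 1.47. On the log2(TPM + 1) scale, which understates changes of low genes, the fold change was 0.36 ± 0.13 with a 95% interval of 0.05 to 0.67. It reached an unadjusted limma p of 0.0288 and an adjusted p of 0.525, the 691st smallest p of all tested genes.

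The other low-level members overlapped between the groups. The gene elo-9 was at 2.10, 2.95 and 3.42 TPM in HLB01 and 3.14, 2.20 and 2.54 TPM in Control (log2 fold change 0.07 ± 0.17, limma adjusted p = 0.947), and its sign turned to -0.04 without HLB01 replicate 3 and to -0.017 without Control replicate 2. The gene elo-4, the only tested member with a negative fold change, was at 0.75, 1.40 and 1.28 TPM in HLB01 and 1.65, 1.24 and 1.29 TPM in Control. HLB01 replicate 1 was the lowest library, and the log2 fold change of -0.17 ± 0.16 (limma adjusted p = 0.844) was -0.03 without it. The gene elo-7 stayed below 1 TPM in every library and was not tested, at 0.64, 0.98 and 0.22 TPM in HLB01 and 0.87, 0.80 and 0.51 TPM in Control. With no protein-coding gene between elo-1 and elo-7, the mean TPM of elo-1 over the 6 libraries was 342 times that of elo-7.

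**Figure D1:**
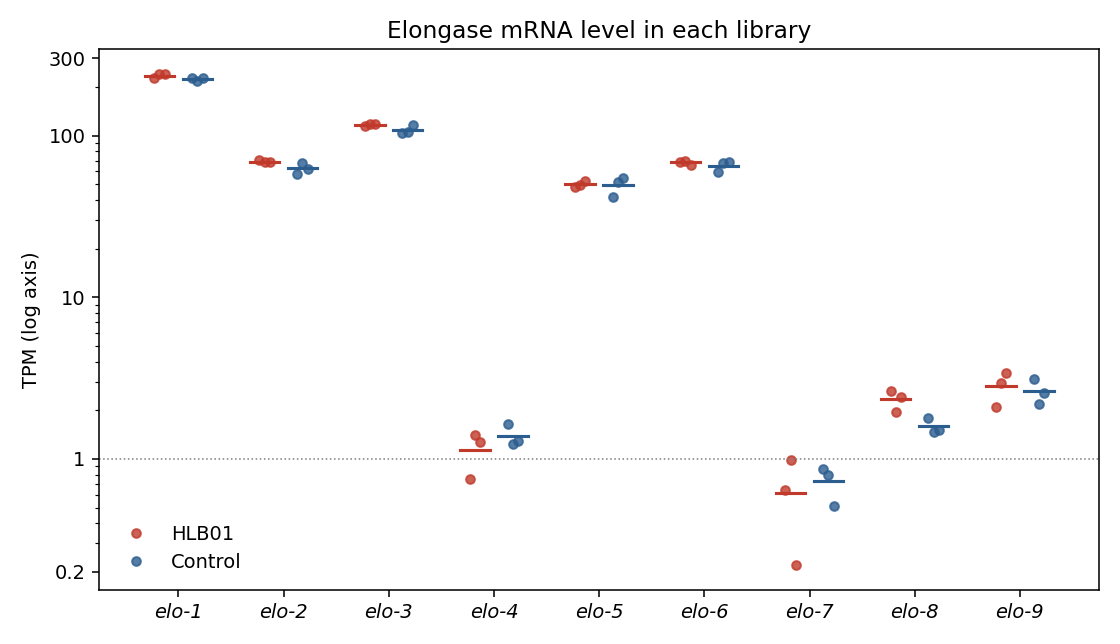
TPM of the 9 elongase genes in each library on a log axis, with HLB01 left of Control for each gene; points are libraries, horizontal bars are group means, and the dotted line marks 1 TPM. The 5 abundant genes sit above 40 TPM and the other 4 below 4 TPM in every library, and the groups are separate for elo-2 and elo-8 alone.

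The order of levels was elo-1, elo-3, elo-6, elo-2, elo-5, elo-9, elo-8, elo-4 and elo-7. The ranges over the 6 libraries did not overlap between elo-1 and elo-3, elo-3 and elo-6, elo-2 and elo-5, or elo-5 and elo-9. The genes elo-6 and elo-2 could not be ranked, with elo-6 higher in 3 of 6 libraries. Ranges of neighbours also overlapped among the low-level genes, although elo-8 exceeded elo-4, and elo-4 exceeded elo-7, in all 6 libraries.

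Summed over the family, the elongases made up 533, 553 and 550.05 TPM in HLB01 and 497, 515.5 and 537 TPM in Control. HLB01 replicate 1 lay below Control replicate 3, so the groups overlapped. The means were 546 ± 10.9 TPM in HLB01 and 516 ± 20.1 TPM in Control (SD, n = 3 each), a ratio of 1.06. The share of each member in the sum overlapped between the groups. The gene elo-1 supplied 43.1 ± 0.645% of it in HLB01 and 43.4 ± 1.81% in Control, and elo-3 supplied 21.3 ± 0.0662% in HLB01 and 21.1 ± 0.556% in Control. The 4 low-level genes together supplied 1.27 ± 0.1004% in HLB01 and 1.23 ± 0.232% in Control. Of these, elo-8 supplied 0.430 ± 0.0729% in HLB01 and 0.310 ± 0.0452% in Control. On average elo-4 and elo-7 had smaller shares in HLB01, and elo-9 a nearly equal one. The ratio of elo-1 to elo-2, genes that both act on polyunsaturated fatty acids, was 3.40 ± 0.167 in HLB01 and 3.60 ± 0.368 in Control.

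Among the abundant members, elo-2, elo-3, elo-5 and elo-6 varied more between Control libraries than between HLB01 libraries. For elo-1 it was the reverse, with a coefficient of variation of 3.47% in HLB01 and 2.65% in Control. Control replicate 1 was the lowest of the 6 libraries for 4 of the 5 abundant genes (elo-2, elo-3, elo-5 and elo-6), and Control replicate 2 for elo-1. Their median coefficient of variation was 2.88% in HLB01 and 7.38% in Control, against 5.56% in HLB01 and 4.90% in Control over the 7419 tested genes with a mean of at least 10 TPM. For the low-level genes the coefficient ran from 15.2% to 62.1% in HLB01 and from 11.1% to 26.3% in Control.

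**Figure D2:**
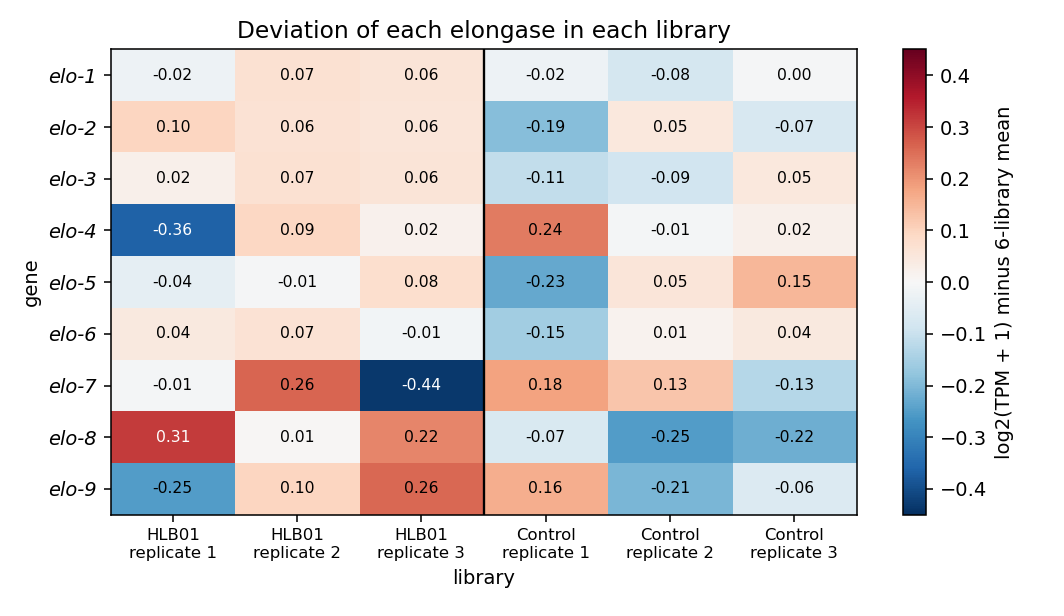
Deviation of log2(TPM + 1) from the gene's own 6-library mean for the 9 elongases (rows) in each library (columns, HLB01 left of Control); red is above and blue below the mean. Control replicate 1 is low for elo-2 (-0.19), elo-3 (-0.11), elo-5 (-0.23) and elo-6 (-0.15), and the widest deviations belong to low-level genes.

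Set against all genes, 0 of the 8 tested elongases passed an adjusted p of 0.05 in limma, where 0.397% of the 12590 tested genes (50 genes) did. An unadjusted p below 0.05 was reached by 1 of the 8, against 8.32% of all tested genes. The groups did not overlap for 2 of the 8, both with HLB01 higher, against 13.8% in either direction and 6.85% with HLB01 higher over all tested genes. A positive log2 fold change was found for 7 of the 8, against 48.7% of all tested genes. The median was 0.07 for the elongases and 0.00 for all tested genes, and the median absolute log2 fold change was 0.08 for both. Differences within the intervals of these libraries remain possible. The 95% interval of the fold in TPM + 1 ran from 0.980 to 1.12 for elo-1, 0.995 to 1.23 for elo-2, 0.985 to 1.16 for elo-3, 0.863 to 1.19 for elo-5 and 0.944 to 1.16 for elo-6. The intervals of the low-level genes were wider, from 0.680 to 1.16 for elo-4, 1.03 to 1.59 for elo-8 and 0.794 to 1.39 for elo-9. For these genes the fold in TPM + 1 understates the fold in TPM, so their differences are not limited to small ones.

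**Figure D3:**
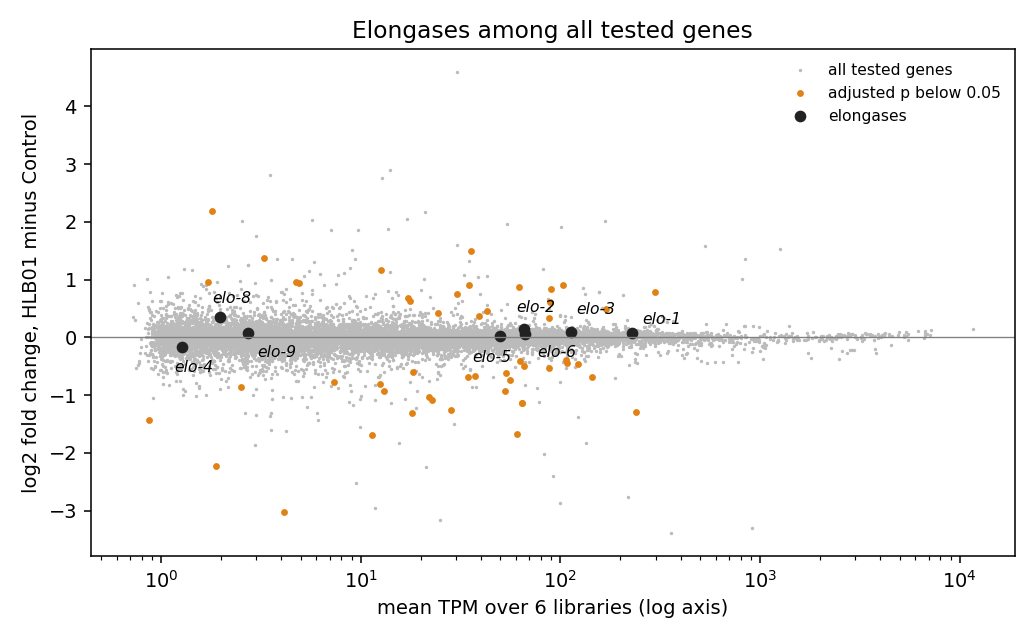
Mean TPM over 6 libraries (log axis) against the log2 fold change of HLB01 minus Control for the 12590 tested genes, in grey, with the 50 genes at an adjusted p below 0.05 in orange and the 8 tested elongases in black. The elongases lie in the grey band around 0, between -0.17 (elo-4) and 0.36 (elo-8).

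The enzymes that share the elongation cycle did not pass either. Of 7 listed genes, 4 were tested, and 0 passed in limma over all genes or at an unadjusted p below 0.05 (median log2 fold change 0.03). The ketoacyl-CoA reductase gene let-767 was at 134 ± 4.17 TPM in HLB01 and 128 ± 2.69 TPM in Control (SD, n = 3 each here and below), with a difference of 0.07 ± 0.04 on the log2 scale (limma adjusted p = 0.744). The enoyl-CoA reductase homologue art-1 was at 132 ± 2.91 TPM in HLB01 and 126 ± 1.83 TPM in Control (log2 fold change 0.06 ± 0.04, limma adjusted p = 0.737). The dehydratase homologue hpo-8 was at 169.9 ± 0.933 TPM in HLB01 and 170.1 ± 2.86 TPM in Control (log2 fold change 0.00 ± 0.03, limma adjusted p = 0.992). All HLB01 values lay above all Control values for let-767 and art-1, and the groups overlapped for hpo-8. Both gaps were narrow. The lowest HLB01 and highest Control values were 131.69 and 131.05 TPM for let-767, and 128.43 and 128.17 TPM for art-1. The groups were thus separate for 2 of the 4 tested genes, against 13.8% of all tested genes. The smallest p of the list belonged to stdh-1, of the steroid dehydrogenase family of let-767, at 13.4 ± 1.22 TPM in HLB01 and 15.02 ± 0.863 TPM in Control (limma adjusted p = 0.723). The other 3 listed stdh genes were below 1 TPM.

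Enzymes that supply malonyl-CoA and palmitic acid did not pass in limma in any of 5 tested of 6 listed genes, 0 of them at an unadjusted p below 0.05 (median log2 fold change 0.01). The acetyl-CoA carboxylase gene pod-2, whose product makes malonyl-CoA, was at 75.98 ± 4.45 TPM in HLB01 and 80.1 ± 2.80 TPM in Control (limma adjusted p = 0.794). The fatty acid synthase gene fasn-1 was at 15.9 ± 1.37 TPM in HLB01 and 15.8 ± 0.547 TPM in Control (limma adjusted p = 0.986), and mlcd-1, a malonyl-CoA decarboxylase gene with the smallest p of this list, at 35.7 ± 2.02 TPM in HLB01 and 33.7 ± 0.666 TPM in Control (limma adjusted p = 0.794). In the route from branched-chain amino acids to the primers of iso-fatty acids, 0 of 6 tested genes passed in limma, and 0 reached an unadjusted p below 0.05 (median log2 fold change -0.01). The acyl-CoA synthetase gene acs-1, which works with elo-5 in the branched-chain pathway, was at 21.0 ± 0.382 TPM in HLB01 and 21.0 ± 0.909 TPM in Control (limma adjusted p = 0.999). The smallest p was that of bckd-1A, a subunit of the branched-chain ketoacid dehydrogenase, at 65.9 ± 3.69 TPM in HLB01 and 69.7 ± 2.60 TPM in Control (limma adjusted p = 0.787).

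The desaturases, which alternate with elongases along the polyunsaturated route, were the list in which 1 gene rose. All 7 were tested and had positive log2 fold changes (median 0.19), against 48.7% of all tested genes. All 7 had an unadjusted limma p below 0.05, against 8.32% of all tested genes, but only fat-5 passed over all genes. The groups were separate for 5 of the 7, each with HLB01 higher. Over all tested genes they were separate for 13.8% in either direction and for 6.85% with HLB01 higher. The desaturase of palmitic acid, fat-5, was at 77.0, 85.8 and 79.2 TPM in HLB01 and 41.9, 41.6 and 48.2 TPM in Control (log2 fold change 0.87 ± 0.07, limma adjusted p = 0.00614). The product of elo-2 uses the same substrate, and the TPM ratio of elo-2 to fat-5, chosen after the values were seen, was 0.914, 0.802 and 0.863 in HLB01 and 1.37, 1.63 and 1.30 in Control. The stearic acid desaturase genes fat-6 (322 ± 19.3 TPM in HLB01, 292 ± 14.8 TPM in Control, limma adjusted p = 0.599) and fat-7 (36.3 ± 1.02 TPM in HLB01, 28.2 ± 2.77 TPM in Control, limma adjusted p = 0.180) did not pass. Whether desaturases and elongases differed in their response was not tested.

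**Figure D4:**
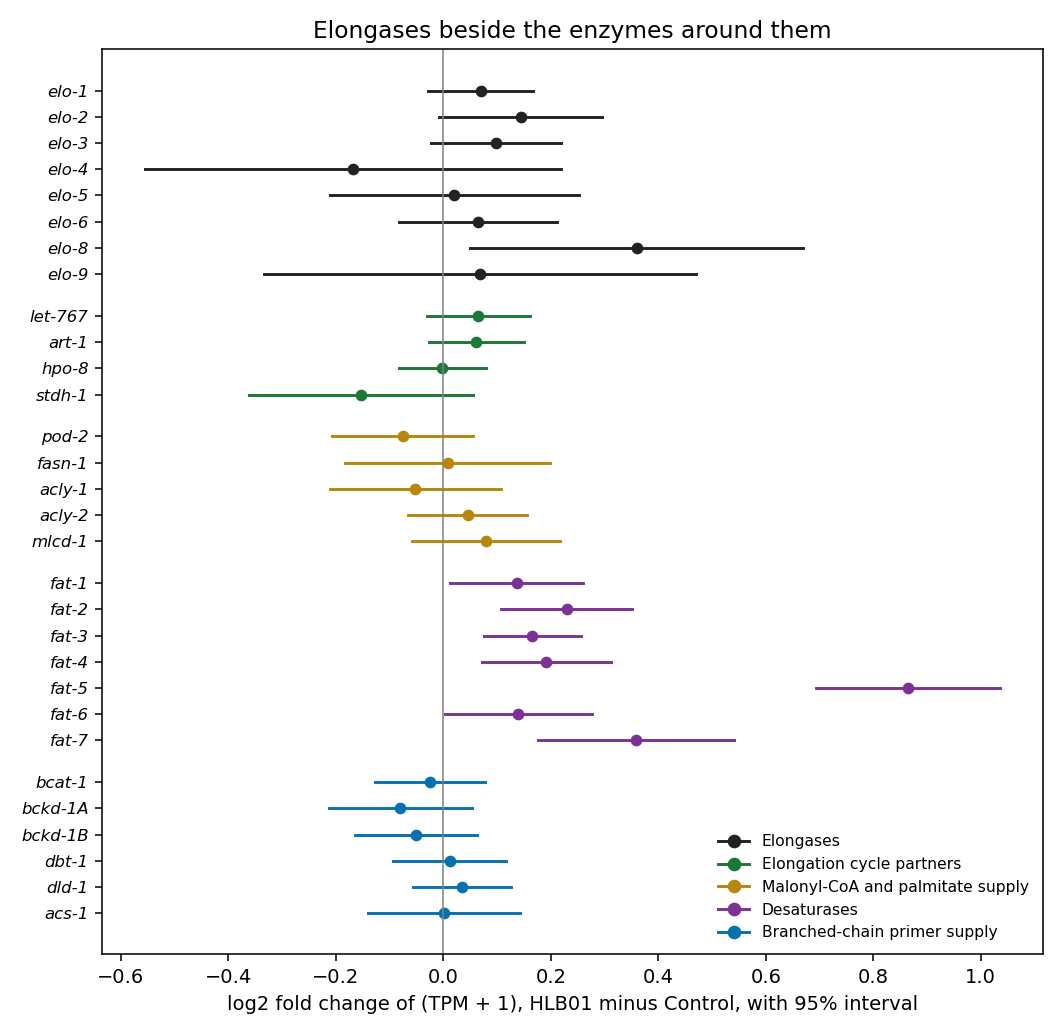
Log2 fold change of TPM + 1, HLB01 minus Control, with its 95% limma interval (not adjusted for multiple tests), for the 8 tested elongases and the tested genes of 4 neighbouring lists. The points of all 7 desaturases and of 7 of the 8 elongases lie to the right of 0, with fat-5 at 0.87. The intervals exclude 0 for all 7 desaturases and for elo-8, and include 0 for 7 of the 8 elongases and all cycle partners.

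Of 10 listed regulators of fat synthesis, desaturation and elongation, 9 were tested and 0 passed in limma, with 1 at an unadjusted p below 0.05 (median log2 fold change 0.01). The gene sbp-1, which encodes the worm SREBP, a lipid-responsive transcription factor, was at 10.7, 11.5 and 11.2 TPM in HLB01 and 12.6, 12.0 and 12.5 TPM in Control. The groups were separate, with HLB01 lower, but the log2 fold change of -0.14 ± 0.07 did not pass (limma adjusted p = 0.675). The nuclear hormone receptor gene nhr-80, whose product promotes desaturase expression, had the smallest p of the list, at 9.32 ± 0.826 TPM in HLB01 and 7.76 ± 0.106 TPM in Control (limma adjusted p = 0.547). Its groups were separate too, with HLB01 higher. The groups were thus separate for 2 of the 9 tested regulators, against 13.8% of all tested genes. Among genes that use the products, 0 of 10 tested genes passed in limma and 0 reached an unadjusted p below 0.05 (median log2 fold change 0.03). The smallest p was that of sptl-3, a serine palmitoyltransferase gene of sphingolipid synthesis, at 28.3 ± 1.41 TPM in HLB01 and 26.5 ± 0.516 TPM in Control (limma adjusted p = 0.755). Over the 6 lists, 41 of 48 genes were tested and 1 rose.

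The profile most like that of elo-8, the elongase with the smallest p, was sought among 8868 tested genes with a mean of at least 5 TPM. Likeness was measured by the root mean square difference of centred log2(TPM + 1) values over the 6 libraries. This scale understates the changes of elo-8 more than those of the candidates, so a near profile need not have the same fold in TPM. The nearest was F47B8.2 (difference 0.042), at 84.96 ± 6.42 TPM in HLB01 and 64.003 ± 3.77 TPM in Control (limma adjusted p = 0.0886). Next came F17C11.6 (difference 0.050), at 17.04 ± 2.33 TPM in HLB01 and 12.6 ± 0.855 TPM in Control (limma adjusted p = 0.300), and WBGene00011607 (difference 0.071). With this many candidates and 6 libraries, some close profiles will be found for any gene.

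The libraries were of whole animals as far as the labels say, and members of all 7 marker lists of tissues, germline and embryo were detected. Of the 8 epidermal markers, 4 averaged below 1 TPM, namely dpy-7, rol-6, che-14 and bli-1. On principal component 1, with 31.3% of the variance, HLB01 libraries scored -2.41, -0.57 and 32.01, and Control libraries -9.15, -15.3 and -4.58. All HLB01 scores lay above all Control scores, with HLB01 replicate 3 far above the rest. Ribosomal RNA took 2123 to 4895 TPM in HLB01 and 530 to 2684 TPM in Control. The intestine is a main site of elongase expression, and 11 of 11 intestinal markers matched (10 tested, 0 past the limma threshold, 4 at an unadjusted p below 0.05, none at 0 TPM). Their summed level was 3004 to 3503 TPM in HLB01 and 3605 to 3992 TPM in Control, without overlap, and asp-1, a cathepsin protease gene, made up 80.2% of it in HLB01 and 81.1% in Control. Without asp-1 the sum was 624 to 676.45 TPM in HLB01 and 676.61 to 748 TPM in Control. The markers did not all lie on the same side, and the groups were separate for 5 of the 10 tested. Over all tested genes the groups were separate for 13.8%, and 8.32% reached an unadjusted limma p below 0.05. The abundant genes asp-1, cpr-6 (280.2 ± 21.1 TPM in HLB01, 336 ± 27.3 TPM in Control) and act-5 (147 ± 5.21 TPM in HLB01, 168 ± 4.65 TPM in Control) were on the lower side in HLB01. The genes vha-6 (96.4 ± 4.20 TPM in HLB01, 85.2 ± 4.08 TPM in Control) and pept-1 (9.41 ± 0.706 TPM in HLB01, 8.05 ± 0.377 TPM in Control) were on the higher side (SD, n = 3 each). These 5 genes were chosen after their values were seen. The summed levels of the other 6 lists overlapped between the groups. Their part in the elongase levels was not tested, and in whole-animal RNA fewer cells of a type and less RNA per cell cannot be told apart.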

How the data were processed

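The authors deposited TPM values for 46778 genes, 1 column for each of the 6 libraries, rounded to 2 decimals. Each column sums to between 996559 and 997388. RNA was extracted with TRIzol and treated with DNase I, per the labels' protocols, and the submitters' processing notes name fastp, HISAT, RSEM and the build WBcel235. Tool roles, versions, annotation release, filters and strandedness are not given in the sources used here. TPM keeps no read depth, so the depth is unknown and no counting interval is given. RSEM divides reads shared between similar genes by a model.

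Libraries were grouped by title, 3 per group. Symbols and coordinates came from Ensembl release 115 of WBcel235, in which 46603 identifiers were found. Values were tested as log2(TPM + 1), with a pseudocount of 1, by limma 3.58.1 (R 4.3.3), using a mean-variance trend. A gene entered the fit if 3 or more libraries had 1 TPM or more, which left 12590 genes. Tests were two-sided, with Benjamini-Hochberg adjustment over all tested genes and a threshold of 0.05. The intervals are limma's 95% intervals, unadjusted. The test was checked on simulated data, with noise drawn independently for each gene and log2 changes larger than those of the elongases. That check does not show whether changes of the elongases' size would be found.

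The members, the 6 pathway lists, the 7 marker lists, the tests and the alternatives were chosen with earlier results of these data known. All elongases were named. From each pathway list, genes past the threshold were named, or the gene with the smallest p, and sbp-1, fat-5, fat-6, fat-7, let-767, art-1, hpo-8, acs-1, pod-2 and fasn-1 whatever their test. The 3 genes nearest in profile to the elongase with the smallest p were also named. The names lpd-1 and acl-10 matched no symbol. No nucleotide or protein sequence was used here.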

Additional observations from a re-analysis of the deposited data

How the results depend on the processing

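No elongase passed the threshold under any of 15 alternatives, over 117 values with limma adjusted p from 0.349 to 0.994. In every alternative 1 pathway gene passed, fat-5. The count of changed genes over the whole table, 50, was 22 with no filter on low values, 27 without the trend, 80 with array weights and 19 to 32 when any 1 library was left out, down to 19 without Control replicate 2. With other alternatives it stayed between 46 and 67. With no filter, elo-7 had a log2 fold change of -0.12 (limma adjusted p = 0.913).

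Signs turned only for elo-5 (0.02 ± 0.10) and elo-9 (0.07 ± 0.17), the 2 genes whose log2 fold change was smaller than its SE. The value of elo-5 was -0.0073 with array weights and ran from -0.091 to 0.099 when libraries were left out. That of elo-9 ran from -0.043 to 0.21. The cause was not tested. For elo-8 the value was 0.52 with a pseudocount of 0.1 TPM and 0.15 with 5 TPM, and 0.29 to 0.45 when libraries were left out. A filter of 5 TPM removes elo-4, elo-8 and elo-9, so these have no value there. The log2 ratio of the summed elongase levels, 0.08, was 0.05 to 0.11 when libraries were left out. The median log2 fold change of all tested genes was -0.0003 with median-ratio scaling and 0.0063 with quantile normalization.

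Replicate numbers come from the titles and the labels do not tie them to a shared culture or day. Deviations of same-numbered libraries correlated at -0.01, 0.04 and 0.13, and HLB01 replicate 1 correlated best with Control replicate 2 (0.14). With the replicate number as a block, 48 genes passed, 35 of them among the 50, and no elongase.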
